A study of Homo sapiens with 38 samples.

Results

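Exomeres and small extracellular vesicles (sEV) were compared by small RNA sequencing, both pelleted by ultracentrifugation (UC) from the same kind of flat (2D) culture of DiFi, a human colorectal cancer cell line known for amplified EGFR. The comparison holds the 3 libraries labelled 2D UC exomere and the 3 labelled 2D UC sEV, 6 of the 38 libraries in the count table. They were picked by those labels alone, and every RNA class of the table was then described, with most room given to the miRNAs that took a larger share of miRNA counts in exomere. Both groups came from 3 pools of 1360 mL of medium conditioned for 48 h without serum. The sEV fraction was what pelleted at 167000 g in 4 h, and the exomere fraction was what pelleted from the remaining supernatant at 167000 g in 16 h. In both, the RNA had been treated with AlkB demethylases, which remove methyl groups that stop reverse transcription, for instance in tRNA. No genetic change or drug separates the groups. Both are pellets from medium pooled over plates of 1 cell line, and the labels do not tie the letters A, B and C to pools, so the spread between libraries may be partly technical. Other libraries were used only for 2 further comparisons, namely supermere of the same culture (367000 g, 16 h) and exomere and sEV of DiFi grown in a hollow-fibre bioreactor (3D UC).

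An sEV is a membrane vesicle that encloses RNA from the cytoplasm, whereas an exomere is a smaller particle without a membrane, made of protein, RNA and lipid. A mature miRNA is a short RNA that an Argonaute protein holds and that guides it to mRNAs, mainly by pairing through its seed. Extracellular miRNAs travel inside vesicles or bound to Argonaute and other proteins outside them, and Y RNA, vault RNA, 7SL RNA and tRNA fragments are the other common small RNAs outside cells.

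The miRNAs on which the results turn are shown with the seed (bases 2 to 8) in capitals, 5′ to 3′, from RefSeq (GRCh38.p14). The first group shows miR-320b, miR-320c and miR-320d, whose shared seed accompanies a shared rise.
miR-320b: aAAAGCUGgguugagagggcaa
miR-320c: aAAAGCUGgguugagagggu
miR-320d: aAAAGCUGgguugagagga
The next 4 are other miRNAs that rose. The bases of miR-1246 also lie within U2 snRNA.
miR-1246: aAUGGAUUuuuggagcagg
miR-193a-5p: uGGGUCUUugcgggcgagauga
miR-589-5p: uGAGAACCacgucugcucugag
miR-484: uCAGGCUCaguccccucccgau
Then come 2 sets of seed mates that moved apart, the first of each rising and the others falling.
miR-130b-3p: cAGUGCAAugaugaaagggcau
miR-301a-3p: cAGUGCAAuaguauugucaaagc
miR-454-3p: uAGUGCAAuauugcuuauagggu
miR-15a-5p: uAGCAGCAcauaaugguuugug
miR-16-5p: uAGCAGCAcguaaauauuggcg
Both arms of 1 hairpin that moved apart are given as let-7d, and the last 3 are abundant sEV miRNAs that fell.
let-7d-5p: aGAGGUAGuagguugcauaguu
let-7d-3p: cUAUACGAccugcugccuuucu
let-7a-5p: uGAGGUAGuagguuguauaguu
miR-200b-3p: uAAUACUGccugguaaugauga
miR-192-5p: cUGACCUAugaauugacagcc

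Library totals were 6745043, 5443716 and 13171570 counts for exomere A, B and C, and 10751387, 16991360 and 11696707 counts for sEV A, B and C. Across the 479 miRNAs tested, Spearman correlations were 0.92 to 0.94 between exomere libraries and 0.95 to 0.97 between sEV libraries. The C library stood farther from A and B in both groups: the median absolute log2 difference of a miRNA was 0.41 between exomere A and B but 0.78 and 0.71 to exomere C, and 0.25 between sEV A and B but 0.58 and 0.50 to sEV C. Results are therefore given also without both C libraries where that matters. The labelled cell type was checked on 8 intestinal and epithelial miRNAs, which summed to 1.56 ± 0.760% of miRNA counts in exomere and 21.4 ± 2.46% in sEV. A list of 6 mesenchyme and muscle miRNAs summed to 0.00203 ± 0.00128% in exomere and 0.00229 ± 6.29e-04% in sEV, and 10 blood cell, endothelial and liver miRNAs to 0.00962 ± 0.00412% in exomere and 0.209 ± 0.0264% in sEV. Every member of these lists had a count in at least 1 of the 6 libraries. The part of such other cells in the results was not tested.

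The fractions held very different mixtures of RNA classes. Fragments of spliceosomal snRNA made up 16.6 ± 7.27% of all counts in exomere (mean ± SD, n = 3) against 1.28 ± 0.389% in sEV, a ratio of 12.9. tRNA made up 0.625 ± 0.159% in exomere against 20.7 ± 1.62% in sEV, 33.0 times less. The misc_RNA class, which holds vault and 7SL RNAs, was at 0.0952 ± 0.0329% in exomere and 1.84 ± 0.448% in sEV, 19.4 times less in exomere. miRNA was the leading class of both, at 63.1 ± 5.31% in exomere and 52.0 ± 3.83% in sEV. Y RNA was at 9.33 ± 0.449% in exomere and 13.2 ± 1.20% in sEV, rRNA at 1.94 ± 0.274% in exomere and 5.86 ± 0.893% in sEV, and endogenous retrovirus (ERV) entries at 2.59 ± 1.37% in exomere and 0.684 ± 0.130% in sEV. In these 7 classes the 3 exomere libraries did not overlap the 3 sEV libraries. The exact two-sided permutation test gave p = 0.10 for each, the smallest value that 3 against 3 libraries allow, and 0.143 after adjustment over the 10 classes. Shares overlapped for lncRNA (4.79 ± 2.29% in exomere and 3.72 ± 0.377% in sEV, exact p = 0.6), snoRNA (0.875 ± 0.162% in exomere and 0.577 ± 0.240% in sEV, exact p = 0.2) and mitochondrial tRNA (0.0909 ± 0.0817% in exomere and 0.130 ± 0.0771% in sEV, exact p = 0.5). All values are relative to the counts of a library, so fewer particles and less RNA per particle cannot be told apart.

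**Figure D1:**
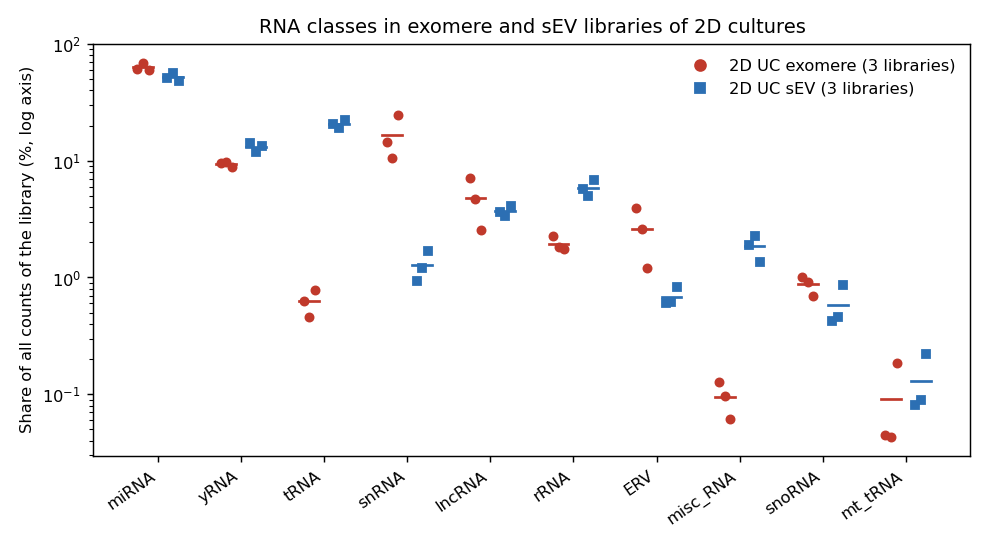
Share of all counts of a library taken by each RNA class (percent, log axis) in 2D culture, with circles for the 3 exomere libraries, squares for the 3 sEV libraries and bars for means. snRNA lies higher and tRNA and misc_RNA lie lower in all 3 exomere libraries, while lncRNA, snoRNA and mitochondrial tRNA overlap.

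Because the class mixture differs so much, each feature was tested against the total of its own class, and values below are relative to it: miRNA CPM are counts per 1000000 miRNA counts, tRNA CPM counts per 1000000 tRNA counts, and so on. Library CPM are per 1000000 counts of the whole library. Of 7411 features tested, 985 (13.3%) passed as higher in exomere and 535 (7.22%) as lower, at an adjusted p below 0.05. Adjusted p-values are Benjamini-Hochberg values from edgeR's quasi-likelihood test over all features tested, unless a fit of the miRNA rows alone is named. With library totals in place of class totals, 1415 features (19.1%) were higher and 495 (6.68%) lower. Scaling of all features by TMM, which sets the typical feature to no change, left 104 higher and 563 lower.

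Within miRNA, a few miRNAs held a much larger share in exomere and many others a smaller one. Of 479 miRNAs tested, 67 (14.0%) passed as higher in exomere and 172 (35.9%) as lower, with a median log2 fold change of -1.07. TMM scaling was fitted on the miRNA rows alone, so estimates of spread and adjustment also covered 479 features in place of 7411. Under it the median moved to -0.19, and 126 (26.3%) were higher and 158 (33.0%) lower. The same 479 rows fitted alone with miRNA totals gave 80 higher and 205 lower. The share of calls that were higher was 28% in both fits with miRNA totals and 44.4% with TMM. Without both C libraries the fit over all features gave 61 higher and 147 lower. The exomere and sEV libraries did not overlap for 338 of the 479 miRNAs (70.6%). The 67 higher miRNAs summed to 48.5 ± 5.89% of miRNA counts in exomere and 8.51 ± 2.27% in sEV, and the 172 lower ones to 4.51 ± 1.01% in exomere and 54.3 ± 5.18% in sEV. The miRNA pool was also more concentrated in exomere. Its 10 most abundant miRNAs held 72.4 ± 2.02% of miRNA counts, against 55.5 ± 0.879% for the 10 most abundant in sEV. The effective number of miRNAs (the exponential of the Shannon entropy of their shares) was 20.3 ± 2.00 in exomere and 40.8 ± 0.282 in sEV.

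**Figure D2:**
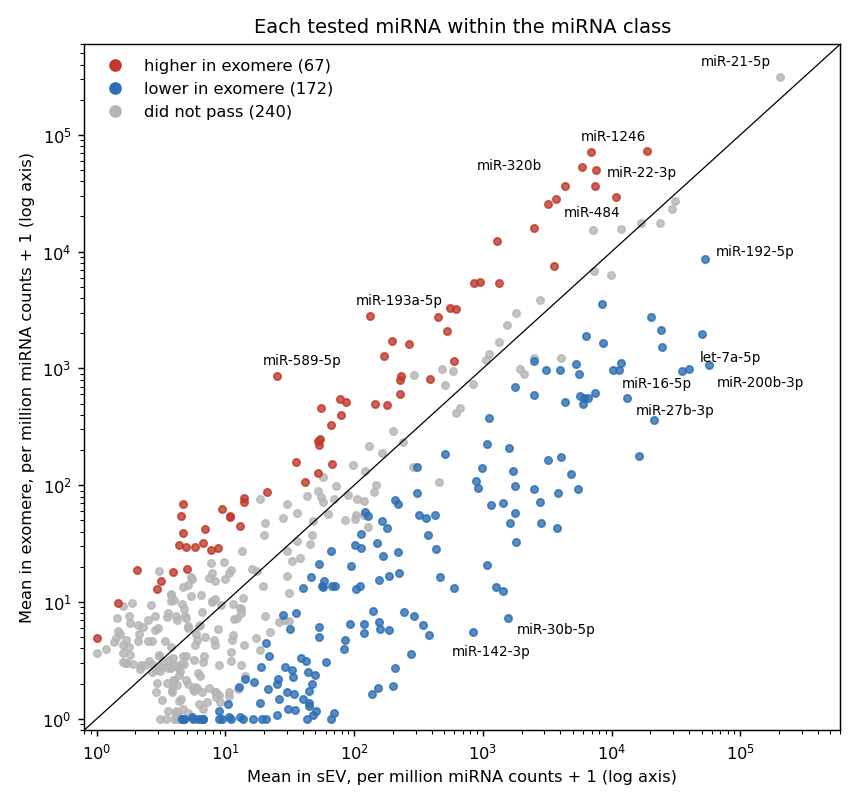
Mean abundance of each tested miRNA in exomere (vertical axis) against sEV (horizontal axis), in miRNA CPM + 1 on log axes, with the line of equal values and colours for miRNAs that passed as higher (67) or lower (172). Many of the lower miRNAs lie near the bottom of the plot, with means close to 0 in exomere.

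The miR-320 family rose as a whole. It regulates, among others, genes of metabolism and the cytoskeleton, and the precursor of miR-320a is known to be made without Drosha. miR-320b (chr1:116671787-116671808, 1 of 2 loci, GRCh38.p13) had 70074, 46771 and 42717 miRNA CPM in exomere A, B and C, against 4893, 5885 and 6787 in sEV A, B and C. Every exomere library was above every sEV library (log2 fold change 3.18, SE 0.30, adjusted p = 3.05e-05). miR-320c had 47673, 31760.0 and 30256 miRNA CPM in exomere and 3637, 4305 and 5079.7 in sEV (log2 fold change 3.07, adjusted p = 3.55e-05). miR-320d had 32392, 21545 and 23405 in exomere and 2659, 3025 and 3956 in sEV (log2 fold change 3.00, adjusted p = 4.05e-05). In both of these sEV C was the highest sEV library, yet the groups stayed apart. miR-320a-3p, the most abundant form in both fractions, had 83245, 60841 and 74295 miRNA CPM in exomere and 14380.4, 17636 and 24569 in sEV, and its rise was smaller (log2 fold change 1.95, SE 0.28, adjusted p = 7.98e-04). Together the 5 listed members (with miR-320e) passed 5 of 5 as higher, with a median log2 fold change of 3.00, and summed to 18.9 ± 3.93% of miRNA counts in exomere against 3.24 ± 0.758% in sEV. miR-320b, miR-320c and miR-320d differ only in their last bases. Such entries may share reads, so they do not count as separate findings, and the extent of sharing was not tested. The call for miR-320e, the rarest, was lost without exomere C, sEV A or sEV B (log2 fold change 2.02 to 3.50 over the 6 fits that leave out 1 library, against 2.59 with all). The seed AAAGCUG is shared by the listed members other than miR-320e. miR-4429, which also carries it and was chosen after its values were seen, rose too (log2 fold change 3.87, adjusted p = 0.00110).

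miR-1246 was also an abundant riser. It had 83412, 57384 and 73804 miRNA CPM in exomere against 3602, 5275 and 11914 in sEV (log2 fold change 3.37, SE 0.44, adjusted p = 3.63e-04), so that every exomere library exceeded every sEV library although the sEV libraries differed widely. Its 19 bases occur letter for letter in U2 snRNA, the spliceosomal RNA that pairs with the branch point of introns. In RNU2-1 they fall at positions 94 to 112 of 191 (GENCODE v29 transcript, shown for positions 74 to 132 with the match in capitals).
RNU2-1: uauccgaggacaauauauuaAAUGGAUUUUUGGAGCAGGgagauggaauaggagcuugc
Reads of these bases cannot be assigned to the miRNA or to U2 by sequence. In library CPM, miR-1246 was at 50692, 39683 and 43779 in exomere and 1858, 2958 and 5775 in sEV. RNU2-1 was at 43992, 31275 and 66965 in exomere and 2029, 3022 and 4093 in sEV. Both were thus higher in every exomere library than in every sEV library, but miR-1246 was highest in exomere A and RNU2-1 in exomere C. In supermere A, B and C of 2D culture miR-1246 was at 37520.7, 37908.5 and 37464.7 and RNU2-1 at 66206, 64513 and 169360. In 3D exomere miR-1246 was at 9875, 5903 and 9459 and RNU2-1 at 30286, 17466 and 38765. In 3D sEV A, B and C miR-1246 was at 41024, 6811 and 3827, with A far above the others, and RNU2-1 at 15760, 20725 and 18013. Whether the miR-1246 counts follow U2 was not tested. In a search of 5217 other small RNA transcripts of GENCODE v29, without nuclear tRNAs, an exact match was found for 8 of the 479 tested miRNAs. Among these miR-1291, which matches SNORA2C, and miR-664a-5p, which matches SNORA36B, also passed as higher. The call of miR-1291 was lost without exomere B or sEV B (log2 fold change 2.19 to 2.93). That of miR-664a-5p was lost without exomere A, exomere C, sEV A or sEV B (1.65 to 2.12). miR-12136, which matches MT-TS1, passed as lower (log2 fold change -4.36). The other matching miRNAs did not pass (-4.51 to 1.35), among them miR-664a-3p (-3.83), which also matches SNORA36B. SNORA36B was at 0 library CPM in all 3 exomere libraries. SNORA2C was at 0, 0 and 8.35 in exomere and 0.186, 0.647 and 0.342 in sEV. Of 33 entries listed as overlapping other structured RNAs, 10 were tested, 3 rose and 3 fell (against 14.0% and 35.9% of all tested miRNAs), and they summed to 7.16 ± 1.32% of miRNA counts in exomere and 0.706 ± 0.439% in sEV, nearly all of it miR-1246. miR-1290 was among the risers with 25.4, 15.9 and 164 miRNA CPM in exomere and 1.98, 2.31 and 6.702 in sEV (log2 fold change 4.24, adjusted p = 0.00852). Exomere C was the highest library, and without it the call was lost at a log2 fold change of 2.495.

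The steepest rises were in rarer miRNAs. miR-589-5p (chr7:5495873-5495894) had 1130.0, 773 and 674 miRNA CPM in exomere against 24.9, 29.6 and 18.5 in sEV (log2 fold change 5.14, SE 0.37, adjusted p = 4.61e-06), a ratio of means of 35.3. miR-193a-5p (chr17:31560016-31560037), the partner strand of a miRNA with tumour suppressor activity in colon cancer, had 3781, 2896 and 1812 in exomere and 102, 105 and 192 in sEV (log2 fold change 4.41, SE 0.41, adjusted p = 2.97e-05). The rule that named both required libraries without overlap, so their separation is not a further result. miR-484, whose precursor is known to be made without Drosha, had 27608, 28846 and 27855 in exomere and 3440.0, 3801 and 3916 in sEV (log2 fold change 2.92, adjusted p = 1.49e-05). In the list of miRNAs made without Drosha or Dicer, or from short introns, 5 members were tested, of which miR-320a-3p and miR-484 rose, miR-877-5p fell and the other two did not pass. miR-22-3p, a conserved miRNA with reported tumour suppressor roles, had 54272, 67032 and 28366 in exomere and 6035, 6841 and 9879 in sEV (log2 fold change 2.72, adjusted p = 4.44e-04) and was among the 6 most abundant miRNAs of exomere. miR-484 and miR-22-3p were apart in all libraries.

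Further rises past the threshold were seen for miR-627-5p (457 ± 260.1 miRNA CPM in exomere, 54.5 ± 10.7 in sEV, log2 fold change 3.07), miR-3679-5p (1275 ± 629 in exomere and 169 ± 32.4 in sEV, 2.91) and miR-193b-5p (542 ± 189 in exomere and 76.7 ± 21.8 in sEV, 2.82). miR-29c-3p, of the family that represses collagen mRNAs, had 2220.1, 1873 and 1013 miRNA CPM in exomere and 157, 152 and 282 in sEV (log2 fold change 3.11, SE 0.40, adjusted p = 3.14e-04). miR-24-3p also rose, by less, with 22764, 25063 and 40979 in exomere and 9283, 8689 and 14723 in sEV (log2 fold change 1.44, adjusted p = 0.0111), and this call was lost without sEV A or sEV B (log2 fold change 1.13 to 1.72 over the fits). Among 91 tested entries numbered from 3000 up, most of them rare, 14 rose and 9 fell, against 14.0% higher and 35.9% lower of all tested miRNAs. The median log2 fold change was 1.24, against -1.07 over all, and the share that rose was near that of all.

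**Figure D3:**
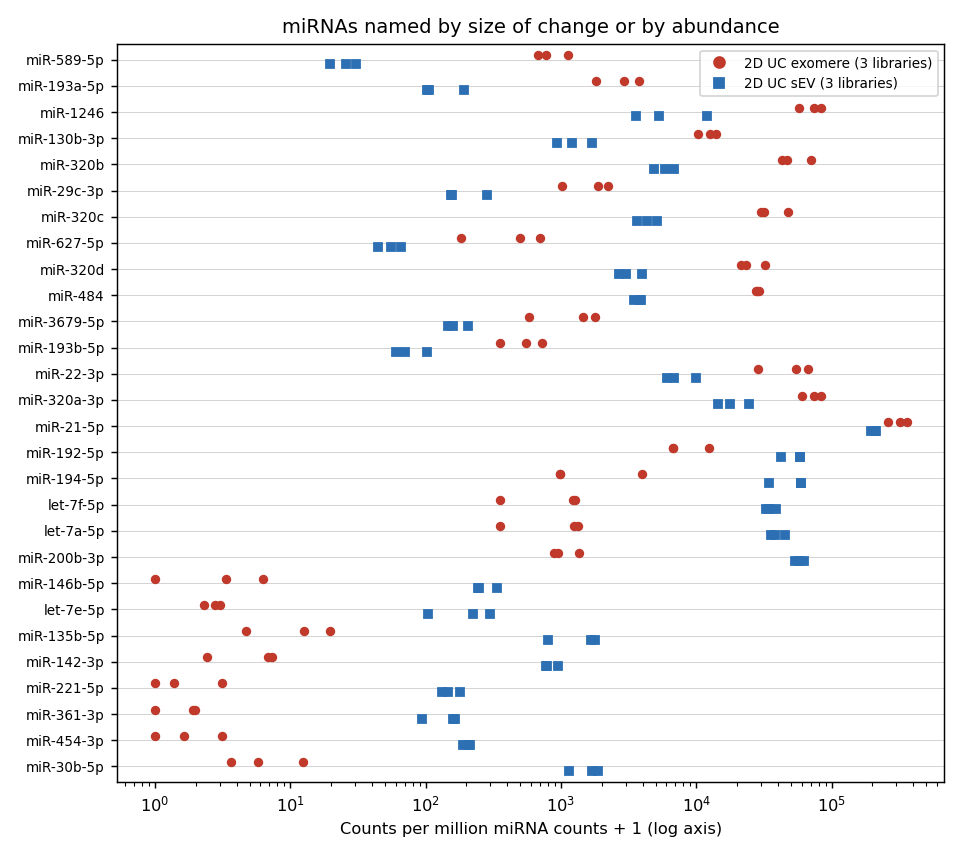
miRNA CPM + 1 (log axis) of named miRNAs, with circles for the 3 exomere libraries and squares for the 3 sEV libraries. The risers lie higher in all 3 exomere libraries and the fallers lie lower in them, while miR-21-5p, which did not pass, is the most abundant in both.

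miR-21-5p, the oncogenic miRNA that represses PDCD4, was the most abundant miRNA of both fractions. It had 262821, 359234 and 318206 miRNA CPM in exomere and 194261, 208454 and 212477 in sEV. All exomere libraries lay above the sEV libraries, but the difference did not pass (log2 fold change 0.61, SE 0.23, adjusted p = 0.0836). It passed under TMM in the fit of the miRNA rows alone (log2 fold change 1.51, adjusted p = 8.03e-04 over 479 miRNAs). Over all alternatives the adjusted p ran from 8.03e-04 to 0.533. A ratio taken within miRNA depends on which miRNAs make up the rest of the pool, and these differed between the fractions.

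The let-7 family, which represses RAS, HMGA2 and LIN28 mRNAs, fell in most of its members. let-7a-5p had 1241, 1342 and 356 miRNA CPM in exomere against 45282, 37794 and 35878 in sEV (log2 fold change -5.34, SE 0.51, adjusted p = 3.17e-05). let-7f-5p had 1258, 1216 and 354 in exomere and 38626, 32856 and 34312 in sEV (log2 fold change -5.23, adjusted p = 3.05e-05), and let-7e-5p had 1.78, 2.02 and 1.29 in exomere and 295, 222 and 103 in sEV (log2 fold change -6.94, adjusted p = 6.46e-06). All 3 were far apart in every library. In the list of 9 members 7 passed as lower and the other two did not pass, with a median log2 fold change of -5.23, and the sum was 2.51 ± 0.499% of miRNA counts in exomere and 12.6 ± 1.01% in sEV. The members that did not pass were let-7b-5p, with 20565, 18500.1 and 13999 miRNA CPM in exomere and 19083, 16122 and 15267 in sEV (log2 fold change 0.07), and let-7i-5p, with 3507, 4277 and 3883 in exomere and 2441, 2279 and 3618 in sEV (log2 fold change 0.48). These 2 alone supplied most of the let-7 counts left in exomere, and both passed as higher under TMM of the miRNA rows.

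Epithelial miRNAs were low in exomere. The miR-200 family keeps cells epithelial by repressing ZEB1 and ZEB2, and 5 of its 5 members fell, summing to 0.486 ± 0.255% of miRNA counts in exomere against 10.996 ± 0.337% in sEV. miR-200b-3p (chr1:1167160-1167181) had 947, 880.5 and 1351 miRNA CPM in exomere and 61977, 56997 and 53429.8 in sEV (log2 fold change -5.76, SE 0.32, adjusted p = 6.96e-07). miR-200a-3p, which has a different seed, fell less (log2 fold change -2.86, adjusted p = 0.00261). miR-192-5p, a miRNA of intestinal epithelium induced by p53, had 6731, 6765 and 12394 in exomere and 58120.2, 58464 and 42354 in sEV (log2 fold change -2.62, adjusted p = 2.47e-04), with exomere C the highest of the exomere libraries but still under every sEV library. miR-194-5p, from the same clusters as miR-192 and miR-215, had 986, 976 and 3952 in exomere and 58896, 58825 and 34264 in sEV (log2 fold change -4.68, adjusted p = 3.03e-04). Of 6 tested members of the intestinal list 3 fell and the others did not pass. The third was miR-215-5p, whose call was lost without exomere A, exomere B, sEV A or sEV B (log2 fold change -1.92 to -1.25).

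The largest falls were shared out over unrelated families. miR-30b-5p had 11.5, 2.66 and 4.74 miRNA CPM in exomere and 1859, 1689 and 1140.2 in sEV (log2 fold change -7.96, SE 0.59, adjusted p = 6.46e-06). miR-454-3p had 0, 2.13 and 0.640 in exomere and 211, 203 and 186 in sEV (log2 fold change -7.82, adjusted p = 2.79e-05). miR-142-3p, a miRNA of blood cells, had 6.34, 5.84 and 1.41 in exomere and 773, 954 and 786 in sEV (log2 fold change -7.57, adjusted p = 7.79e-06). In all 3 the highest exomere library lay far below the lowest sEV library. The rule that named the 8 largest falls required libraries without overlap. miR-361-3p (log2 fold change -7.63), miR-221-5p (-7.61), miR-135b-5p (-6.98), which is often raised in colorectal tumours, and miR-146b-5p (-6.75) also fell. Together with let-7e-5p, given above, they completed the 8 largest falls. These were taken among miRNAs that passed without overlap, with a mean of at least 100 miRNA CPM in either group. Rarer miRNAs, such as miR-331-3p, had larger fitted falls. miR-125a-5p had 0 counts in all 3 exomere libraries and 24.7, 21.9 and 8.47 miRNA CPM in sEV, which is at least 99.3-fold lower when 3 counts over the 3 exomere libraries are taken as the floor. Such floors cover counting error only.

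Other lists were mixed. Of 11 tested members of the oncogenic miR-17-92 cluster and its paralogs 7 fell and the others did not pass. Among those that fell were miR-93-5p (log2 fold change -3.59) and miR-20a-5p (-3.60), and the list had summed shares of 2.03 ± 0.439% in exomere and 5.18 ± 0.761% in sEV. Of 7 tested colorectal oncomiRs 6 fell, among them miR-182-5p (-3.28) and miR-183-5p (-4.75), and the seventh was miR-21-5p. Within miR-23, miR-24 and miR-27, 1 of 5 rose (miR-24-3p) and 4 fell, including miR-27b-3p (-4.56). Among miR-29 and miR-30, 2 of 8 rose and 4 fell, with miR-30e-5p at -1.74 and miR-30d-5p at -3.55. Of the 7 miR-10, miR-99, miR-100 and miR-125 members 2 fell and the others did not pass, and their summed shares were close, at 1.66 ± 0.680% in exomere and 1.41 ± 0.125% in sEV. The fall of miR-125b-5p in that list (log2 fold change -3.65, adjusted p = 0.0118) was lost without exomere C (log2 fold change -4.21 to -3.10 over the fits). miR-221-3p and miR-222-3p, raised in many tumours, summed to 2.92 ± 0.704% in exomere and 3.96 ± 1.15% in sEV, and neither passed. The counts for these lists are read against the 14.0% higher and 35.9% lower of all tested miRNAs.

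A shared seed did not always mean a shared direction. Among the 479 miRNAs, 140 fell into 52 groups of at least 2 with the same seed, and 20 of these groups had at least 2 members past the threshold. In all but 2 of these 20 the called members moved one way. Whether this is more than groups of unrelated called miRNAs would show was not tested. The seed AAAGCUG (miR-320a-3p, miR-320b, miR-320c, miR-320d and miR-4429) had 5 of 5 tested members higher, though near-identical members may share reads. AAUACUG (miR-200b-3p, miR-200c-3p, miR-429) had 3 of 3 lower. The 2 exceptions were AGUGCAA and AGCAGCA. With AGUGCAA, miR-130b-3p rose to 14056, 12705 and 10228 miRNA CPM in exomere, against 925, 1207 and 1705 in sEV (log2 fold change 3.27, SE 0.32, adjusted p = 3.78e-05), while miR-454-3p fell as given above. miR-301a-3p and miR-301b-3p, with the same seed, were at 0 in all exomere libraries, at least 17.8-fold and 28.8-fold below sEV. They are rare in sEV, and their calls were lost in 6 and 5 of the 6 fits that leave out 1 library. With AGCAGCA, miR-15a-5p had 6206, 7766 and 2268 miRNA CPM in exomere and 1137, 1281 and 1558 in sEV (log2 fold change 2.03, adjusted p = 0.00711). Its seed mate miR-16-5p, which shares a transcript with it and is carried by Argonaute in plasma, had 879.9, 1045 and 959.7 in exomere and 11532, 9970.3 and 9269 in sEV (log2 fold change -3.41, adjusted p = 9.06e-06). miR-15b-5p (log2 fold change -2.04) and miR-195-5p (-5.99) fell with miR-16-5p. miR-29a-3p, which has the seed of miR-29c-3p and miR-29b-3p, did not pass, at 27804, 31252 and 21637 miRNA CPM in exomere and 29824, 29378 and 34517 in sEV. Its log2 fold change of -0.22 turned to 0.69 under TMM, while miR-29b-3p rose (2.57).

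The 2 arms of a hairpin come from 1 precursor and are separated when 1 of them is loaded into Argonaute. Both arms were tested for 116 hairpins, both passed for 43, and in 13 of the 43 they passed in opposite directions. Of all 479 tested miRNAs 67 passed as higher and 172 as lower, so unrelated called miRNAs can also differ in direction. Whether the arms of these 13 pairs moved apart more often than unrelated called miRNAs was not tested. Members of these pairs were singled out after their values were seen, unless the rule for named features gave them. let-7d-5p had 50.7, 30.3 and 45.3 miRNA CPM in exomere and 3784, 3594 and 3944 in sEV (log2 fold change -6.48, adjusted p = 6.96e-07). let-7d-3p had 336, 342 and 1686 in exomere and 215, 232 and 226 in sEV (log2 fold change 1.81, adjusted p = 0.0474), with exomere C highest, and its rise was lost without exomere C, where the log2 fold change was 0.59, and without sEV A, sEV B or sEV C. miR-130b-5p fell (log2 fold change -5.41, adjusted p = 0.00185) where miR-130b-3p rose. miR-193b-3p fell (log2 fold change -1.68, adjusted p = 0.00411) where miR-193b-5p rose, and these 2 arms have equal GC content. miR-331-5p rose (log2 fold change 1.29, adjusted p = 0.00781) and miR-331-3p fell (log2 fold change -8.36, adjusted p = 4.36e-05). miR-629-5p rose (log2 fold change 2.65, adjusted p = 0.00160) and miR-629-3p fell (log2 fold change -2.67, adjusted p = 0.00776). Over the 108 pairs whose arms differ in GC content, the arm with more GC had the higher log2 fold change in 60.

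The miRNAs that rose held more guanine. Median guanine content was 33.3% in the 67 higher miRNAs and 22.7% in the 172 lower ones, against 27.3% in all 479. Median GC content was 50.0%, 45.5% and 47.8% in the same 3 sets. Of 96 miRNAs with at least 60% GC, 18 rose and 19 fell, of 72 with 40 to 45% GC, 7 rose and 36 fell, and of 52 below 35% GC, 8 rose and 23 fell. These are 18.8%, 9.72% and 15.4% higher, against 14.0% of all tested miRNAs, so the share of rises did not climb steadily with GC content. The share that fell was 19.8%, 50.0% and 44.2%, against 35.9%. Across the 479 miRNAs the Spearman correlation of the log2 fold change was 0.39 with guanine content and 0.29 with GC content, a description over miRNAs that share the same 6 libraries. In the 185 miRNAs with a mean of at least 100 miRNA CPM in either group these values were 0.28 and 0.32. The letters GGAG, searched on the miRNA strand, occurred in 16 of the higher miRNAs (23.9%), 11 of the lower (6.40%) and 65 of all tested (13.6%). The letters CCCU occurred in 7.46%, 6.40% and 7.31% of the same sets. miRNAs shorter than 21 bases made up 16.4% of the higher (11 miRNAs, among them miR-320c, miR-320d and miR-1246), 5.23% of the lower and 9.19% of all. Related miRNAs, such as the miR-320 members, were counted as separate entries in all these values. Ligation and amplification can depend on base content and length, and their part was not tested.

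**Figure D4:**
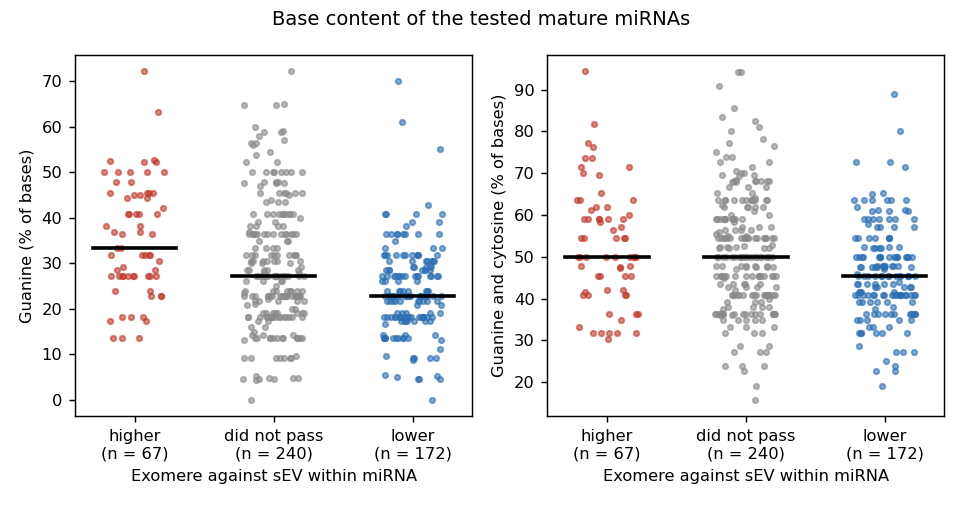
Guanine content (left) and guanine plus cytosine content (right) of mature miRNAs, in percent of bases, for the 67 that passed as higher in exomere, the 240 that did not pass and the 172 that passed as lower, with 1 point per miRNA and a bar at each median. Median guanine content is 33.3% in the higher and 22.7% in the lower set, with wide overlap.

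Supermere is the third pellet of the same culture. The fit of exomere against supermere called 133 of 8829 features (1.51%) higher and 51 (0.578%) lower in exomere. Among them were 39 miRNAs (7.39% of 528) that were higher and 8 (1.52%) that were lower. It uses the same exomere libraries as the comparison with sEV, so the values are only given side by side. miR-320b had 70074, 46771 and 42717 miRNA CPM in exomere and 108102, 103695 and 90197 in supermere, a difference that did not pass (log2 fold change -0.92, adjusted p = 0.138). miR-1246 was at 60612, 61860.4 and 99789 in supermere, close to its exomere values (log2 fold change -0.05, adjusted p = 1.00). miR-29c-3p was lower in exomere than in supermere, where it had 6501, 5082 and 3417 miRNA CPM (log2 fold change -1.55, adjusted p = 0.0218). Several sEV miRNAs were higher in exomere than in supermere. miR-200b-3p had 228, 169 and 276 miRNA CPM in supermere (log2 fold change 2.24, adjusted p = 2.13e-04), and miR-194-5p had 139.9, 173 and 356 (log2 fold change 3.14, adjusted p = 0.00814). miR-16-5p was at 296, 280.1 and 208 there (log2 fold change 1.88, adjusted p = 5.57e-04). These 3 thus stood below sEV and above supermere in the exomere fraction.

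The bioreactor culture offered the same contrast with other libraries. Of 66 miRNAs that were higher in 2D exomere and tested in both cultures, 54 also had a higher mean in exomere than in sEV of 3D culture. For the 171 lower in 2D exomere, 17 had a higher mean in 3D exomere, and for all 462 tested in both, 149 did. A direct test of the difference between the cultures called 67 of 7149 features (0.937%) with a higher and 61 (0.853%) with a lower exomere to sEV ratio in 2D. It called 11 miRNAs (2.14% of 514) with a higher and 30 (5.84%) with a lower ratio. miR-21-5p was one of them. In 3D it had 20272, 20830.2 and 7897 miRNA CPM in exomere and 157515, 163596 and 159587 in sEV, so that exomere lay below sEV (log2 difference of 2D minus 3D 3.91, SE 0.42, adjusted p = 1.12e-05). miR-589-5p had 79.1, 28.5 and 105 in 3D exomere and 28.8, 29.8 and 16.7 in 3D sEV, a smaller rise than in 2D (difference 3.66, adjusted p = 0.00640). It was named for its rise in 2D, and the same 2D libraries enter the difference, so a larger 2D value was favoured. miR-320b had 20464, 16727 and 32249.9 in 3D exomere and 1545, 4978 and 4665 in 3D sEV, and its difference between cultures did not pass (difference 0.55, adjusted p = 0.624). Culture, medium pool and conditioning were changed together and cannot be told apart.

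The balance of isoacceptors within tRNA differed between the fractions. tRNA-Gly-GCC, whose 5′ fragments are known to be stable outside cells, had 106861, 110756 and 37726 tRNA CPM in exomere against 528106, 494215 and 537753 in sEV (log2 fold change -2.61, SE 0.39, adjusted p = 9.26e-04), where it was the leading tRNA in all 3 libraries. By library totals its log2 fold change was -7.77. Its most frequent gene sequence in the table is shown beside that of tRNA-His-GTG, with the anticodon in capitals (chr1:161523847-161523917, minus strand, and chr1:146038044-146038115, plus strand, GRCh38.p13).
tRNA-Gly-GCC: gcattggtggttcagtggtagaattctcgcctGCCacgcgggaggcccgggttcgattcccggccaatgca
tRNA-His-GTG: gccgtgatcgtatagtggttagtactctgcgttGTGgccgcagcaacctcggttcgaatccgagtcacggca
Of 48 tRNA entries tested, 36 (75.0%) rose within tRNA and 2 (4.17%) fell. tRNA-His-GTG had 150630.0, 170523 and 40156 tRNA CPM in exomere and 1214, 1216 and 1895 in sEV (log2 fold change 6.38, SE 0.59, adjusted p = 2.80e-05), but by library totals it did not pass (log2 fold change 1.19) and the sign turned under TMM (-0.37). tRNA-Glu-TTC had 56499.9, 63803 and 250028 in exomere and 22376, 21175 and 22584 in sEV (log2 fold change 2.49, adjusted p = 0.00830), with exomere C far above the other libraries. tRNA-Asp-GTC, the leading tRNA of exomere by mean but not in exomere C, had 348399, 263614 and 163380.0 in exomere and 211090.0, 266385 and 179120.0 in sEV and did not pass (log2 fold change 0.24). tRNA-Gly-CCC also passed as lower (log2 fold change -1.24, adjusted p = 0.0365), a call lost without exomere A, sEV A, sEV B or sEV C (log2 fold change -1.60 to -0.92 over the 6 fits). When the most abundant entry was left out of the class total, 30 tRNAs were higher and 8 lower. By library totals 1 tRNA was higher and 26 lower.

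Y RNAs, the small partners of the Ro60 protein, were led by RNY1 in both fractions, with a larger share of the class in exomere. RNY1 had 566490.0, 565031 and 500165 Y RNA CPM in exomere and 261738, 253322 and 332183 in sEV (log2 fold change 0.95, adjusted p = 0.0185), and its call was lost without exomere A, exomere B, sEV A or sEV B (log2 fold change 0.87 to 1.08). RNY4 had 75139.6, 79089 and 97350.1 in exomere and 143751, 151705 and 141435 in sEV (log2 fold change -0.80, adjusted p = 0.0387), and this fall was lost in each of the 5 fits that left out a library other than exomere C (log2 fold change -0.92 to -0.72). RNY3 fell most of the 3 genes, with 145, 214 and 86.0 in exomere and 11033, 10377 and 10714 in sEV (log2 fold change -6.19, SE 0.41, adjusted p = 3.03e-06). Over the class 44 of 259 entries (17.0%) rose and 145 (56.0%) fell. Many are pseudogene copies that share reads, such as RNY4P23 (log2 fold change 4.43, adjusted p = 3.22e-04), and are uncertain as single entries. By library totals RNY1 had a log2 fold change of 0.44, which turned to -0.93 under TMM.

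The leading lncRNA entry of sEV contains a Y RNA gene. The entry ENSG00000286171 (chr7:148941483-148941638, 156 bases) contains the whole RNY5 gene of RefSeq (chr7:148941488-148941571, 84 bases, GRCh38.p14, in which RNY1, RNY3 and RNY4 have the same coordinates as in the deposited table). It had 1809.6, 1418 and 11870.0 lncRNA CPM in exomere against 624331, 582233 and 565442 in sEV, 59.1 ± 3.03% of all lncRNA counts there (log2 fold change -6.88, SE 0.85, adjusted p = 2.40e-04). Whether these reads belong to RNY5 or to the lncRNA cannot be told from counts. The calls of the rest of the class depend on this entry. With it in the class total 801 of 5338 lncRNAs (15.0%) passed as higher and 10 (0.187%) as lower, with a median log2 fold change of 1.49. Without it in the total 23 were higher and 14 lower, with a median of 0.22. Without both C libraries 267 were higher and 9 lower.

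Several other lncRNA entries that fell cover genes of small RNAs. EPCAM-DT, whose span holds BCYRN1 on the opposite strand, had 528, 504 and 519 lncRNA CPM in exomere and 53654, 49553 and 24135 in sEV (log2 fold change -6.36, adjusted p = 2.26e-06). GAS5, with 11 snoRNA genes within its span by RefSeq, had 279, 277 and 277 in exomere and 6015, 7090.4 and 12612 in sEV (log2 fold change -4.95, adjusted p = 8.43e-06), and SNHG1, with 9 small RNA genes, had 62.4, 43.0 and 71.6 in exomere and 3095, 4394 and 6645 in sEV (log2 fold change -6.30, adjusted p = 3.70e-06). MIR142HG, which contains MIR142, was without counts in all 3 exomere libraries, at least 84.3-fold below sEV, and miR-142-3p fell as given above. ELDR, next to EGFR and the leading lncRNA entry of exomere by mean, had 6614, 5593 and 4409 lncRNA CPM in exomere and 1905, 2263 and 2405 in sEV (log2 fold change 1.34, adjusted p = 0.00809), and its call was lost without sEV A (log2 fold change 1.19 to 1.48). EGFR-AS1, antisense to EGFR, had 4961, 4367 and 2049 in exomere and 1192, 1473 and 1606 in sEV (log2 fold change 1.41, adjusted p = 0.0196), lost without exomere A, exomere B, sEV A or sEV B (log2 fold change 1.17 to 1.71). No small RNA gene lies within ELDR or EGFR-AS1. Such genes did not mark falling entries alone, since MIR646HG, which passed as higher, spans 3 by RefSeq and NORAD, which passed as lower, spans 0. How often lncRNA entries in general span such genes was not counted. Both rises were below the class median of 1.49, and without ENSG00000286171 in the class total their log2 fold changes were 0.06 for ELDR and 0.14 for EGFR-AS1, past no threshold. GAS5, SNHG1, MIR142HG, MIR646HG and NORAD were chosen after their values were seen.

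Within misc_RNA, 20 of 55 entries (36.4%) rose and 2 (3.64%) fell. Vault RNAs, parts of the vault particle, summed to 52.7 ± 16.7% of the class in exomere against 95.5 ± 1.20% in sEV. VTRNA1-1 had 384453, 283776 and 359790.0 misc_RNA CPM in exomere and 717687, 739469 and 734255 in sEV (log2 fold change -1.09, adjusted p = 0.0108), lost without exomere B, sEV A or sEV B (log2 fold change -1.18 to -0.98). VTRNA1-2 had 115471, 70968 and 330483 in exomere and 220439, 202275 and 178804 in sEV and did not pass (log2 fold change -0.22). VTRNA3-1P passed as lower (log2 fold change -1.22, adjusted p = 0.0272), a call kept in 1 of the 6 fits that leave out 1 library (log2 fold change -1.52 to -1.02). 7SL RNA, the scaffold of the signal recognition particle, summed to 37.7 ± 16.9% of the class in exomere and 4.30 ± 1.13% in sEV, with 19 of 46 tested entries higher and the others not past the threshold. Its copies share reads. RN7SL1 had 31281, 43468 and 12566 in exomere and 8532, 9796 and 14346 in sEV (log2 fold change 1.41, adjusted p = 0.0425), lost in 5 of the 6 fits that leave out 1 library (log2 fold change 1.01 to 1.77). By library totals RN7SL1 passed as lower (log2 fold change -2.70, adjusted p = 0.00184). Without VTRNA1-1 in the class total 9 entries were higher and 4 lower, and RN7SL1 did not pass (log2 fold change 0.10). By library totals, under which the whole class is 19.4 times lower in exomere, 12 of its entries passed as lower.

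U2 led the snRNA class in both fractions. RNU2-1 had 301968, 297160.0 and 271801 snRNA CPM in exomere and 217316, 249356 and 240537 in sEV and did not pass within snRNA (log2 fold change 0.30). U2 entries together made up 60.1 ± 1.55% of snRNA counts in exomere and 50.1 ± 4.52% in sEV. Of 217 snRNA entries, 3 (1.38%) rose and 62 (28.6%) fell within the class, while 104 were higher and 4 lower by library totals. RNU11, of the minor spliceosome, had 67832, 54539.9 and 236684 snRNA CPM in exomere and 21679.9, 27444 and 7857 in sEV (log2 fold change 2.66, adjusted p = 0.0124), lost without exomere C at a log2 fold change of 1.69. RNU1-1, the RNA that recognises the 5′ splice site, passed as lower within snRNA, with 29536, 26687 and 15820.1 in exomere and 72832, 59440.3 and 59685 in sEV (log2 fold change -1.41, adjusted p = 0.00824). Of 75 U6 entries 36 fell and the others did not pass.

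Among snoRNAs, which guide chemical modification of rRNA, exomere counts were concentrated in fewer entries. The effective number of snoRNAs was 7.78 ± 0.539 in exomere and 70.5 ± 2.28 in sEV, and 6 of 217 entries (2.76%) rose while 133 (61.3%) fell. SNORD33, from an intron of RPL13A, had 464161, 456794 and 557877 snoRNA CPM in exomere and 168203, 160996 and 144639 in sEV (log2 fold change 1.64, SE 0.25, adjusted p = 0.00110), which made it the leading snoRNA of both fractions. ENSG00000273885, an entry that overlaps SCARNA9, had 221623, 239307 and 68684 in exomere and 54772, 50556 and 15596 in sEV (log2 fold change 2.13, adjusted p = 0.0208), lost without exomere A, exomere B or sEV B (log2 fold change 1.75 to 2.52). SNORD3A, the U3 RNA of rRNA processing, had 12643, 14034 and 15935 in exomere and 33947, 32641 and 32011 in sEV (log2 fold change -1.21, adjusted p = 0.00902). C/D box snoRNAs had 4 of 130 entries higher and 91 lower, and H/ACA box snoRNAs had 1 of 58 higher and 30 lower. With SNORD33 left out of the class total, 7 snoRNAs were higher and 88 lower.

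**Figure D5:**
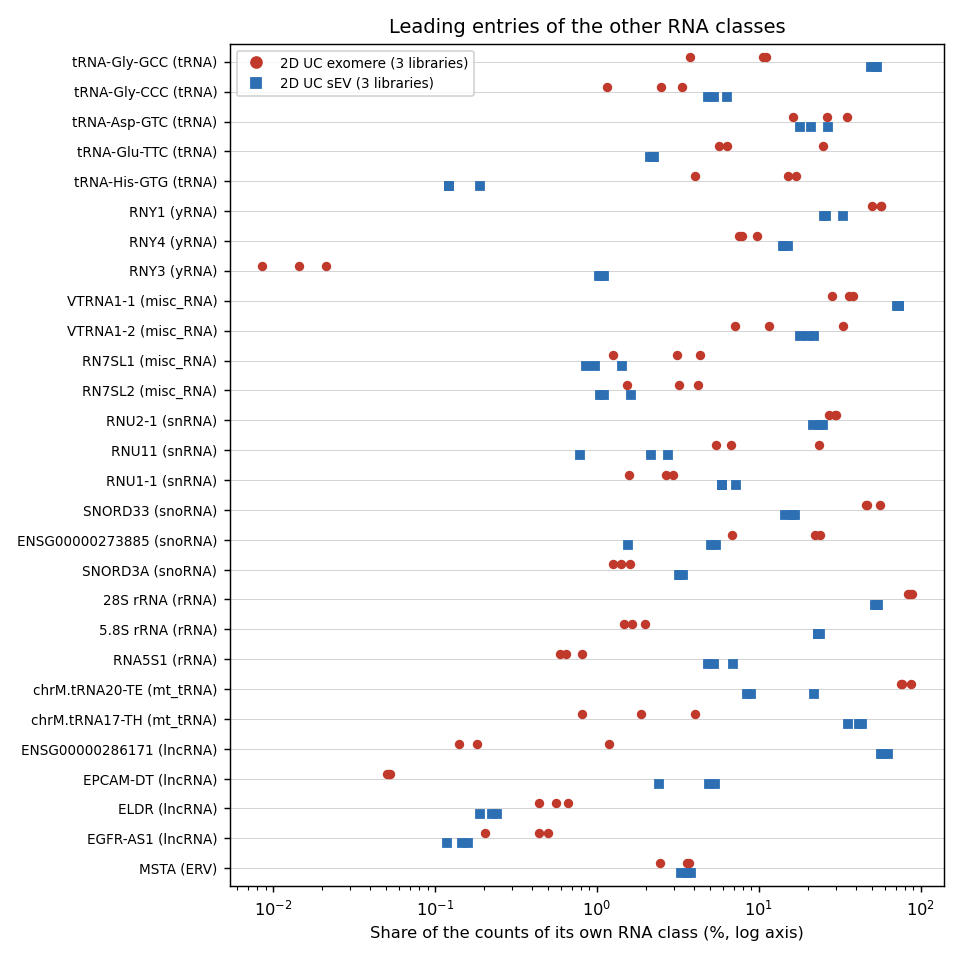
Share of its own class (percent, log axis) of leading entries of the other RNA classes, with circles for the 3 exomere libraries and squares for the 3 sEV libraries. tRNA-Gly-GCC and RNY3 lie lower and SNORD33 lies higher in all 3 exomere libraries.

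For rRNA, 28S fragments dominated both fractions. The 28S entry had 853550.0, 883304 and 838154 rRNA CPM in exomere and 548188, 539064 and 518491 in sEV, apart in all libraries, and missed the threshold (log2 fold change 0.68, adjusted p = 0.0541). The 5.8S entry ENSG00000277739, the most abundant of several 5.8S entries, had 19878, 16469 and 14639.5 in exomere and 231864, 233524 and 240524 in sEV (log2 fold change -3.79, SE 0.27, adjusted p = 4.61e-06). RNA5S1, a 5S copy, fell too (log2 fold change -3.06, adjusted p = 3.17e-05). Of 18 rRNA entries 6 (33.3%) fell and the others did not pass, whereas with 28S left out of the class total 4 were higher and 4 lower. Among mitochondrial tRNAs the glutamate tRNA had 760000.0, 762719 and 866995 mitochondrial tRNA CPM in exomere and 85084, 89695 and 219315 in sEV (log2 fold change 2.60, adjusted p = 0.00114). It made up most of the class in exomere. The histidine tRNA had 40667, 18812 and 8118 in exomere and 415601, 432046 and 356387 in sEV (log2 fold change -4.18, adjusted p = 3.37e-04), and in all 1 of 20 rose (5.0%) and 3 fell (15.0%), while without the leading entry in the total 6 were higher and 2 lower. Of 760 ERV entries 7 (0.921%) rose within the class, calls that were lost without both C libraries, whereas 306 (40.3%) were higher by library totals. The 2 with named values, LTR84a (log2 fold change 1.71, adjusted p = 0.0411) and MER70-int_MER70B (log2 fold change 2.28, adjusted p = 0.0387), lost their calls in each of the 6 fits that leave out 1 library (log2 fold changes 1.52 to 1.92 and 1.94 to 2.81).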

How the data were processed

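The authors deposited expected counts per small RNA feature, not scaled between libraries (22549 features, 38 libraries). Per the submitters' processing notes, cutadapt 4.5, FastQC 0.12.1 and Bowtie 1.3.1 were used with GRCh38.p13, and the counting tool and annotation are not given in the sources used here. Of the values 6.71% were not whole (tolerance 1e-06), so reads matching several entries appear divided among them, and copies that share reads are uncertain as single entries. Per the labels' protocols, RNA was treated with AlkB and size-selected. The table's name holds project numbers of unknown membership, a possible batch that could not be examined. Of the value columns 0 were left unmapped. Without molecular identifiers, PCR copies cannot be told from separate molecules, so the floors used for features at 0 (3 counts) cover counting error only.

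Counts were rounded and tested in the 6 libraries with the robust quasi-likelihood fit and test of edgeR 4.0.16 (R 4.3.3, two-sided), with filterByExpr (minimum count 10) and the log of each library's class total as offset. The adjusted p is Benjamini-Hochberg over all features tested in a fit, with 0.05 as threshold. Where the miRNA rows were fitted alone, it covers those rows only. The SE is the log2 fold change divided by the root of F. Library totals, 12 libraries for the difference between cultures and 9 for supermere were fitted likewise. Class shares were compared by exact permutation over 20 assignments. The code was tested on simulated data. Alternatives were DESeq2 1.42.0, TMM, RLE, other filters, other class totals, a replicate block and leaving out each library.

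Named features were, among miRNAs that passed without overlap and averaged at least 100 CPM of miRNA, the 12 largest rises and 8 largest falls, the 6 most abundant miRNAs of each group, 2 members of each list that passed, the leading and leading changed entries of each other class with at least 0.1% of counts, and RNY and vault RNA genes. VTRNA2-1 was not analysed here. Features outside the rule (miR-4429, miR-320e, seed mates, opposite arms, let-7b-5p, let-7i-5p, miR-1291, miR-664a-5p, miR-664a-3p, miR-12136, miR-215-5p, GAS5, SNHG1, MIR142HG, MIR646HG, NORAD) were chosen after their values were seen. The comparison, the lists and the rule were chosen with earlier results of these data known. The letters A, B and C gave correlations of deviations of 0.032, 0.0044 and 0.094 between same-lettered libraries and were not used as pairs. Of 479 tested miRNAs 432 matched RefSeq, and all 432 had the deposited sequence.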

Additional observations from a re-analysis of the deposited data

Results flagged for a closer look

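The exomere to sEV log2 fold change within the class differed between 2D and 3D culture for 17 of the 81 named features. This is by a test of the difference itself in 12 libraries (edgeR, adjusted p below 0.05). Over all 7149 features tested, 67 (0.937%) had a higher and 61 (0.853%) a lower ratio in 2D. Differences are 2D minus 3D, so a positive value means a larger exomere to sEV ratio in 2D. Among miRNAs that passed as higher in 2D exomere, miR-589-5p differed by 3.66. miR-21-5p, which did not pass in 2D, differed by 3.91. Among miRNAs lower in 2D exomere, the fall was steeper in 2D for miR-30b-5p (-4.54), miR-454-3p (-5.77), miR-361-3p (-4.52), miR-200b-3p (-2.84), let-7a-5p (-2.96), let-7f-5p (-2.62), miR-30d-5p (-1.97) and miR-183-5p (-2.03). miR-589-5p, miR-30b-5p, miR-454-3p and miR-361-3p were named for the size of their change in 2D. The same 2D libraries enter the difference, so this choice favours a larger change in 2D. miR-125a-5p also differed, with a fitted -6.86 that has no firm size since 2D exomere had 0 counts. It had 46.5, 57.9 and 19.9 miRNA CPM in 3D exomere and 228, 149 and 178 in 3D sEV. Of the other classes, EPCAM-DT differed by -7.47, the 5.8S entry ENSG00000277739 by -3.33, tRNA-His-GTG by 3.07, RNY1 by 1.79, RNY4P23 by 4.41 and RNY4 by -1.39. EPCAM-DT had 10318, 19213 and 8958 lncRNA CPM in 3D exomere and 8445, 4294 and 5122 in 3D sEV, with every exomere library above every sEV library, the reverse of 2D. Culture system, medium pools and conditioning were changed together, so their parts cannot be told apart.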

How the results depend on the processing

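The counts of miRNAs lower within miRNA kept their direction and stayed within 1.5 times the main 172 under every alternative run, and leaving out 1 library gave 132 to 163. With the miRNA rows fitted alone, the 67 higher miRNAs became 80 with miRNA totals, 114 with RLE and 126 with TMM. They became 24 in a fit of all 38 libraries, while leaving out 1 library gave 47 to 65. Within their class 1520 features passed, against 528 with all 38 libraries, 639 with class totals without the most abundant entry and 810 without both C libraries (both added after seeing the data), and 945 to 1361 without 1 library. By library totals 1910 passed, against 935 with 9 libraries, 673 with RLE, 667 with TMM, 415 with all 38 libraries and 817 to 2111 without 1 library. With the letters as a replicate block, which the data did not show to pair the libraries, this count was 1112, and 66 miRNAs were higher and 173 lower within miRNA. The 41 miRNAs whose difference varied between cultures became 70 with DESeq2, 72 with TMM, 26 with all 38 libraries and 25 (without sEV A) to 69 (without 3D exomere C). The 47 that differed from supermere became 13 with all 38 libraries, 83 with no filter, 80 with the replicate block and 30 (without supermere A) to 71 (without supermere C). The causes of these shifts were not tested. Signs turned for MSTA (-0.24 to 0.034 without 1 library, 0.087 without both C libraries), RN7SL2 (-0.065 with class totals without the most abundant entry), tRNA-Asp-GTC (-0.67 under the same totals, -0.036 to 0.48 without 1 library), VTRNA1-2 (-1.11 to 0.15 without 1 library), let-7b-5p (-0.050 to 0.22 without 1 library) and miR-29a-3p (0.41 with RLE, 0.69 with TMM, 0.0033 with totals without the most abundant entry, 0.35 without the 5 most abundant). By library totals they turned for tRNA-His-GTG (-0.48 with RLE, -0.37 with TMM) and RNY1 (-1.05 with RLE, -0.93 with TMM). Differences of shares turned for lncRNA (-0.0956 to 2.20 percentage points without 1 library) and mitochondrial tRNA (-0.0863 to 0.00537). With rRNA counts left out of the library totals, the tRNA share was 21.3 points lower in exomere (exomere minus sEV -21.3). Rare entries, with 0 counts in exomere, have a floor but no firm fold at these depths.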
